A study of Mus musculus with 8 samples.

Results

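Cytochrome P450 genes were described in colon tissue of mice with severe T cell colitis and of their controls. The members were all genes whose annotated symbol has the form of a P450 subfamily and number, such as Cyp2c55, with 1 gene of the retinoic acid subfamily left out of the choice. They had to have a probe set annotated to that gene alone, and 87 of 30627 measured genes met the rule. Cyp11a1 had more than 1 such probe set, and its brightest by mean log2 over all arrays was used. P450 genes without a probe set of their own, or whose symbol ends in a letter, are not analysed here.

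P450 enzymes are haem proteins that insert an oxygen atom into fat-soluble molecules with electrons passed on from a reductase. Families 1 to 3 mostly clear drugs and plant compounds, while others build or break down bile acids, oxysterols, steroid hormones, vitamin D, retinoic acid and eicosanoids. In the colon they are known mainly from surface epithelial cells, under the control of nuclear receptors that sense bile acids and foreign compounds.

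All 8 mice were Rag1-/- on a C57BL/6 background and so lacked mature T and B cells of their own. The Treg-injected group (5 non-inflamed colons, here controls) received regulatory T cells, and the Naïve T-injected group (3 severely inflamed colons, here inflamed) received naïve T cells, which expand and attack the gut. Per the labels, cells were injected at 10 weeks of age, mice were killed 2 to 4 months afterwards, and their age is given as 4 to 5 months, so age at death is not exact. The sample protocol names distal colon, while the series design describes a strip from cecum to rectum. Each array was taken as 1 mouse, since the labels call the replicates biological. Female-type arrays, with Xist above the Y-linked Kdm5d, numbered 3 of the 5 controls and 1 of the 3 inflamed arrays.

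The values are log2 intensities, and "rose" and "fell" mark a Benjamini-Hochberg adjusted p under 0.05 in limma's moderated test over all genes. Differences are inflamed minus control on the log2 scale, with limma's standard error (SE) after ±, for 5 control and 3 inflamed arrays. Values of an array are listed in the order of replicates 1 to 5 or 1 to 3. Inflamed replicate 2 stood apart from the other inflamed arrays, with a Pearson r of 0.9891 with replicate 1 over genes, against 0.995 between replicates 1 and 3. All 11 measured epithelial markers lay above the dim limit, the median of the array medians at 4.89. So did 19219 of the 30627 genes, which makes this a weak check of the colon label. Of the hepatocyte markers, 5 of 6 lay below that limit.

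More P450 genes fell than rose in inflamed colon, and most did not pass. Of the 87 members, 20 fell (23.0%) and 2 rose, where 5.01% of all genes fell and 8.02% rose, or 13.0% in either direction. These shares of all genes are the background for each count of a subfamily or gene list below. At least 2-fold falls numbered 11, against 0.898% of all genes. All 3 inflamed arrays lay below all 5 controls for 29 members and above them for 3, against 9.16% and 12% of all genes. The median difference was -0.0949 over the 87 members and -0.0134 over all genes. Of the 22 members that changed, 20 had a mean over all arrays at or above the dim limit, as did 43 of the 87. In bulk tissue, fewer cells of a type and less RNA per cell cannot be told apart. Leaving out 1 array gave 10 to 25 members that fell, with 10 without inflamed replicate 1, 11 without control replicate 2 or 5, and 12 without control replicate 4. The count was 33 when each array was centred on its 75th percentile, a setting in which lower genes made up 53.2% of all calls instead of 38.5%, and 26 after quantile normalization (48.3%).

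**Figure D1:**
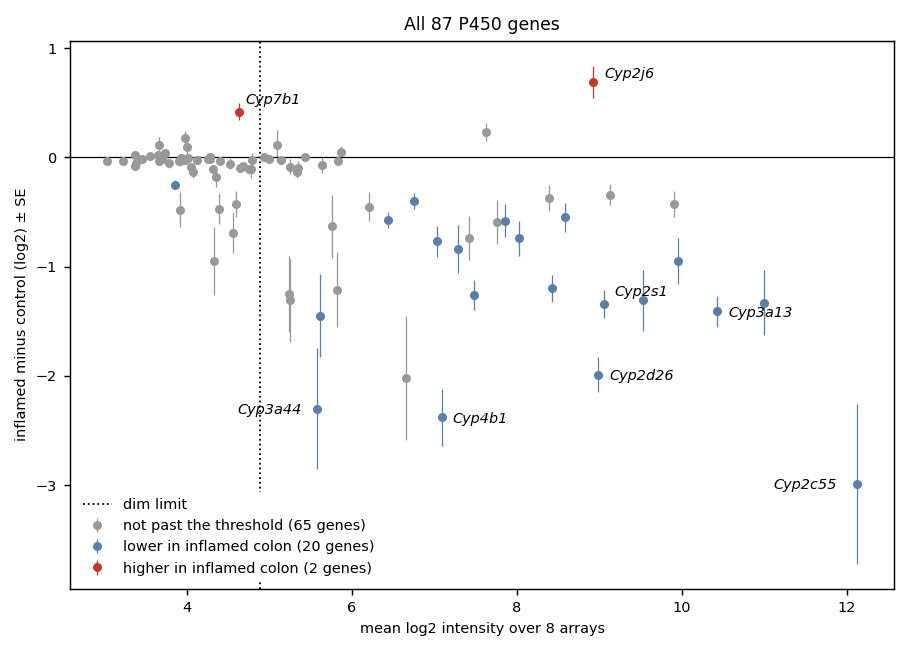
Each point is 1 of the 87 P450 genes, with its mean log2 intensity over 8 arrays on the horizontal axis and its difference, inflamed minus control (log2) with SE, on the vertical axis. The dotted line is the dim limit of 4.89, and 20 genes are marked as lower and 2 as higher.

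The largest fall was that of Cyp2c55, an enzyme that hydroxylates arachidonic acid and is known from the mouse colon. Its log2 intensity was 13.42, 13.17, 13.07, 13.26 and 13.31 in controls and 10.61, 11.97 and 8.19 in inflamed colon. Controls lay close together, while the inflamed arrays spread over several log2 units, with replicate 3 lowest, and the groups did not overlap. Cyp2c55 fell by 2.99 ± 0.73, or 7.93-fold (adjusted p = 0.0387). Cyp2c65 and Cyp2c66, its neighbours on the chromosome and likewise intestinal enzymes, moved with it. Cyp2c65 was at 11.85, 11.40, 11.35, 11.49 and 11.41 in controls and at 10.43, 10.73 and 9.34 in inflamed colon, and fell by 1.33 ± 0.30 (adjusted p = 0.0281). Cyp2c66 was at 10.41, 10.01, 9.80, 10.02 and 9.86 in controls and at 8.95, 9.21 and 7.97 in inflamed colon, and fell by 1.31 ± 0.28 (adjusted p = 0.0236). In all 3 genes inflamed replicate 2 was the least and replicate 3 the most reduced. Among controls, Cyp2c65 and Cyp2c66 were both highest on replicate 1 and lowest on replicate 3. Whether their probes share signal was not tested, so these 2 genes may not be separate readings. The calls of Cyp2c55 and Cyp2c65 ended without any 1 control or inflamed replicate 1 (adjusted p = 0.0753 to 0.0918 and 0.055 to 0.0656), while Cyp2c66 lost its call when inflamed replicate 1 or control replicate 2, 4 or 5 was removed (adjusted p = 0.051 to 0.0574). Without inflamed replicate 3 the difference of Cyp2c55 was -1.95, and without replicate 2 it was -3.84.

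The start of Cyp2c55 is shown beside that of Cyp2d26, which also fell, and of Cyp2j6, which rose, as the 100 bases up to the start site on the gene's own strand. The sequences are RefSeq's for GRCm38.p6, at chr19:39006919-39007018 (+), chr15:82794246-82794345 (-) and chr4:96553652-96553751 (-). Capitals mark TATAAA, the core of the TATA box, on the gene's strand, or TTTATA where it lies on the other strand, as in Cyp2d26.
Cyp2c55: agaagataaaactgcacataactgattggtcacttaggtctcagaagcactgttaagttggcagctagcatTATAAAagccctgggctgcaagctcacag
Cyp2d26: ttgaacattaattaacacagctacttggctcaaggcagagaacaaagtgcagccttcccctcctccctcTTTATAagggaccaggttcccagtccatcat
Cyp2j6: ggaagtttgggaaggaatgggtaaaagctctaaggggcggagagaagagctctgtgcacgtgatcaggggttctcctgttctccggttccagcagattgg
The match began 29 bases before the start in Cyp2c55 and 31 in Cyp2d26, and these letters were not in the Cyp2j6 window. Windows from 250 bases before to 50 after a start were at hand for 67 of the 87 members. TATAAA was found in 26 of the 67 (38.8%), against 15.7% of 26994 genes. It was in 8 of the 17 members that fell and had a window, and in 18 of the 49 that did not pass. Matches were counted on either strand and anywhere in the window, such as 162 bases before the start in Cyp2c65, so not each is a TATA box.

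A set of 4 further Cyp2c genes, of which 1 passed, had the same lowest controls. Cyp2c67, which lies further along the same cluster, was at 5.45, 6.51, 6.70, 5.54 and 6.58 in controls and at 4.60, 5.26 and 4.26 in inflamed colon, and fell by 1.45 ± 0.38 (adjusted p = 0.048). Cyp2c68, next to it, was at 6.51, 7.79, 7.98, 6.64 and 8.15 and at 5.17, 6.51 and 4.51, a difference of -2.02 ± 0.57 that did not pass (adjusted p = 0.0602). Cyp2c69 differed by -1.25 ± 0.35 (adjusted p = 0.0563) and Cyp2c40 by -1.21 ± 0.34 (adjusted p = 0.0608). In these 4 genes controls 1 and 4 lay below the other controls and inflamed replicate 2 above the other inflamed arrays. They are near-identical copies whose probes may share signal, so they are not 4 separate readings. Cyp2c37 fell by 0.25 ± 0.040 (adjusted p = 0.00813), from 3.94, 4.01, 3.92, 3.86 and 3.99 to 3.70, 3.66 and 3.72, all under the dim limit, so the size of its change is uncertain. Of the 14 Cyp2c members, 5 fell, 0 rose, and all 14 differences were below 0. The Cyp2c67 call ended when inflamed replicate 1 or 3 or any control but replicate 1 was removed (adjusted p = 0.0534 to 0.142), and it did not pass with the sex pattern as a covariate (adjusted p = 0.0842). With values raised to a floor at the dim limit, Cyp2c67 (difference -1.14, adjusted p = 0.119) and Cyp2c37 (both groups at the floor, adjusted p = 1.0) did not pass. Nor did Cyp2c55 (adjusted p = 0.0729) and Cyp2c65 (adjusted p = 0.0563), whose values all lie above the floor. Their differences stayed at -2.99 and -1.33, and only the variance and adjustment shared over all genes changed.

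A short motif was found in the windows of 6 of the 13 members of this cluster. CAAAGTCCA, a motif preferred by HNF4 receptors, which drive liver and gut epithelial genes, was searched on both strands of the same windows. It was found in 9 of the 67 members (13.4%) and in 0.556% of 26994 genes, and 6 of the 9 were Cyp2c genes. Copies of 1 ancestral gene are not independent in this count. The windows of 5 of them are shown with the match in capitals, on the gene's strand and in GRCm38.p6, together with the stretch of Cyp2c66 most like that of Cyp2c65. They lie at chr19:39060874-39060914 (+), chr19:39113778-39113818 (+), chr19:39649143-39649183 (-), chr19:39741154-39741194 (-), chr19:39886820-39886860 (-) and chr19:39812835-39812875 (-), in the order printed.
Cyp2c65: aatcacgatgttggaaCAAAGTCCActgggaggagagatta
Cyp2c66: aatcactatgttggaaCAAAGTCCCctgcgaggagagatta
Cyp2c67: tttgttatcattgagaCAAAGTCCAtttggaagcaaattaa
Cyp2c68: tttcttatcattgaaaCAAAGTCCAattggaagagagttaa
Cyp2c69: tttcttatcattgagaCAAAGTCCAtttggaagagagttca
Cyp2c40: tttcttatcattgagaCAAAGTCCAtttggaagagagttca
Counted from the first base of the Cyp2c65 window, Cyp2c66 differed by G7T, A25C and G29C, of which A25C lies in the motif. The capitals of Cyp2c66 thus mark the aligned place and not a match. The Cyp2c69 and Cyp2c40 windows hold the same 41 letters. The motif stood in 2 of the 17 members that fell and had a window, Cyp2c65 and Cyp2c67, so most that fell lacked these letters in this window. The other matches were in Cyp2c70, Cyp3a11, Cyp3a16 and Cyp8b1, none of which passed. Further receptor motifs, named LRH-1, DR1 and DR3, were searched in the same windows. Each was in 0 of the 67 members, against 1.76%, 0.0482% and 0.00741% of 26994 genes. With motifs this rare, 0 of 67 members does not show a lack. A match is a description and not a site of binding.

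Of the Cyp2d subfamily, the mouse relatives of a major human drug-metabolizing enzyme, 5 of the 8 members fell and 0 rose. Cyp2d26 was at 9.73, 9.56, 9.89, 9.60 and 9.90 in controls and at 7.93, 7.98 and 7.33 in inflamed colon. The groups were far apart, and Cyp2d26 fell by 1.99 ± 0.16, or 3.97-fold, with the lowest adjusted p of the members (0.000644). Cyp2d22 was at 7.99, 7.73, 8.20, 7.92 and 7.92 and at 6.50, 6.99 and 6.60, and fell by 1.26 ± 0.14 (adjusted p = 0.00177). The other falls were smaller. Cyp2d12 was at 7.16, 7.57, 7.92, 7.35 and 8.01 in controls and at 6.98, 6.77 and 6.52 in inflamed colon, and fell by 0.84 ± 0.22 (adjusted p = 0.0433). Cyp2d10 was at 8.54, 8.73, 9.00, 8.80 and 8.93 in controls and at 8.22, 8.47 and 8.03 in inflamed colon, and fell by 0.55 ± 0.13 (adjusted p = 0.0316). The groups lay close to each other in both genes. Cyp2d40 was at 6.78, 6.94, 7.08, 6.78 and 6.92 in controls and at 6.50, 6.50 and 6.51 in inflamed colon, with hardly any spread among the latter, and fell by 0.40 ± 0.071 (adjusted p = 0.0122). Cyp2d34 was at 10.03, 10.02, 10.07, 10.31 and 9.93 in controls and at 9.60, 9.91 and 9.42 in inflamed colon, a difference of -0.43 ± 0.12 that did not pass (adjusted p = 0.0638). Its groups did not overlap, but those of the next genes did. Cyp2d9 was at 8.30, 8.55, 8.60, 8.56 and 8.64 in controls and at 8.32, 8.30 and 7.86 in inflamed colon (-0.37 ± 0.12, adjusted p = 0.094). Cyp2d13 was at 7.78, 7.94, 8.20, 7.78 and 8.17 in controls and at 7.40, 7.82 and 6.94 in inflamed colon (-0.59 ± 0.20, adjusted p = 0.103). The subfamily thus held both clear falls and small differences. Among controls, Cyp2d12 and Cyp2d13 were both highest on replicates 3 and 5. Whether probes of Cyp2d genes share signal was not tested, so the 8 members may not be separate readings. Cyp2d10 lost its call when inflamed replicate 1 or 3 or any control but replicate 1 was removed (adjusted p = 0.0624 to 0.0988), Cyp2d12 lost it without any 1 array but control replicate 1 (adjusted p = 0.0641 to 0.119), and neither passed with the sex pattern as a covariate (adjusted p = 0.0634 and 0.0831) or with the floor (0.0602 and 0.0797).

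Among the Cyp3a genes, relatives of the main drug-clearing enzymes of human gut and liver, 2 of 7 fell and 0 rose. Cyp3a13, known as an intestinal form, was at 11.18, 10.68, 10.84, 11.12 and 10.97 in controls and at 9.41, 9.80 and 9.43 in inflamed colon, and fell by 1.41 ± 0.14, or 2.65-fold (adjusted p = 0.00129). Cyp3a44, known as a female-type gene of liver, varied widely among controls, at 7.65, 6.55, 4.85, 6.47 and 6.66, and was at 4.02, 4.42 and 3.97 in inflamed colon, under the dim limit. It fell by 2.30 ± 0.55 (adjusted p = 0.0352), a size that is uncertain because the inflamed arrays are that dim. Control replicate 3 lay below the other controls, close to the inflamed range. The Cyp3a44 neighbours Cyp3a25, Cyp3a11 and Cyp3a59 likewise had control replicate 1 highest and control replicate 3 lowest. Their differences of -1.31, -0.69 and -0.95 did not pass (adjusted p = 0.0644, 0.0521 and 0.0927), and probes of these copies may share signal. Removing any 1 inflamed array or control replicate 2, 4 or 5 ended the Cyp3a44 call (adjusted p = 0.0653 to 0.111), as did a floor at the dim limit, with a difference of -1.55 (adjusted p = 0.166). With the sex pattern as a covariate the Cyp3a44 difference was -2.51 (adjusted p = 0.0311).

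**Figure D2:**
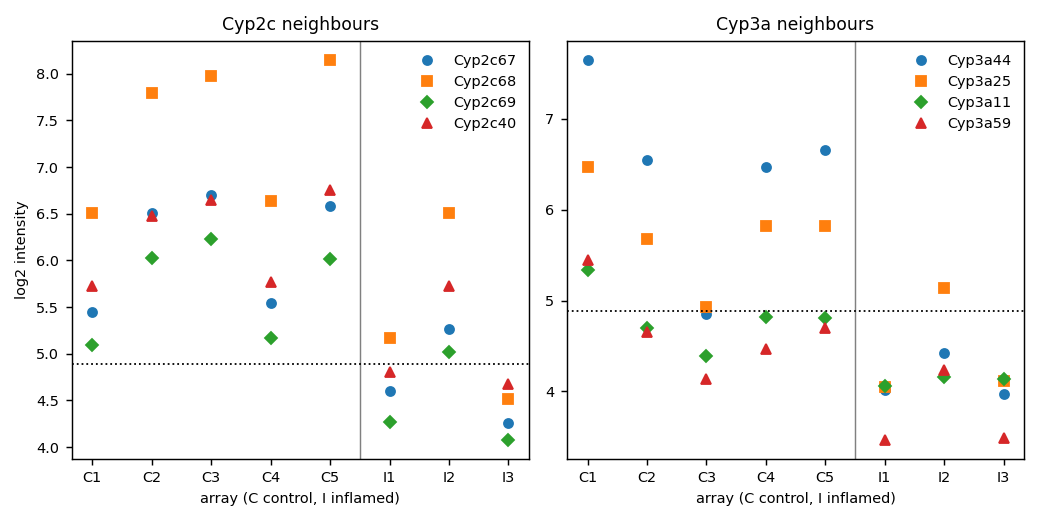
Log2 intensity of 4 Cyp2c genes (left) and 4 Cyp3a genes (right) on each array, with controls C1 to C5 left of the grey line and inflamed arrays I1 to I3 right of it; the dotted line is the dim limit. On the left C1 and C4 lie lowest among controls, and on the right C1 is highest and C3 lowest, so the 2 sets vary differently among the same mice.

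Of all 43 members of the foreign-compound subfamilies, 12 fell and 0 rose, while 22 neither passed nor reached the dim limit. The 3 Cyp2a and 5 Cyp2b members all lay under the dim limit, and none passed. Cyp2e1, the ethanol-oxidizing enzyme, had the same deposited value of 4.28 on 7 of 8 arrays. Such repeated values on at least 5 arrays were present for 21 of the 87 members and for 13.6% of all genes, and 1 member, Cyp27b1, had a single value on all 8 arrays. Above the dim limit, Cyp2w1 differed by -0.45 ± 0.13 (adjusted p = 0.0633) and Cyp2f2 by -0.63 ± 0.29 (adjusted p = 0.207), and the groups overlapped for both.

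**Figure D3:**
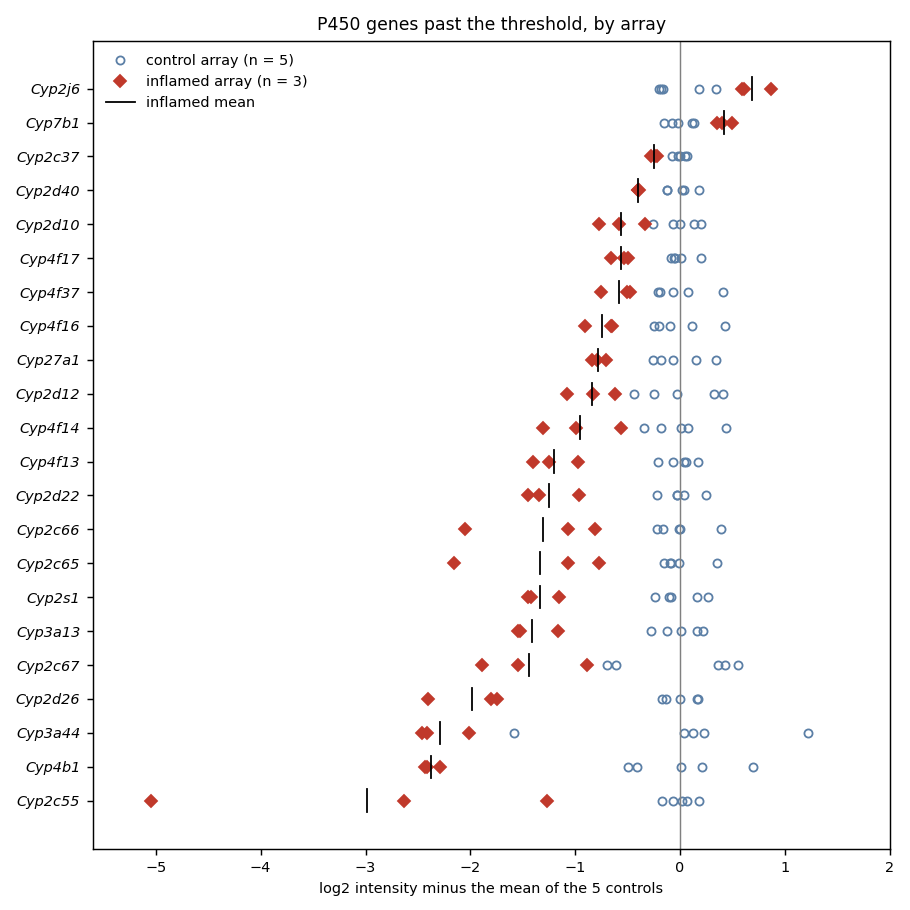
The 22 P450 genes that changed, each array's log2 intensity minus the mean of the 5 controls, with controls as open circles, inflamed arrays as diamonds and the inflamed mean as a black bar. Groups do not overlap for any of the 22, and the 3 inflamed arrays of Cyp2c55 are the most spread. The 22 were chosen by a test on these same arrays, so the lack of overlap is not added evidence for their calls.

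Among enzymes that oxidize fatty acids and eicosanoids, more genes fell than rose, and most did not pass. Of the 23 members of subfamilies 2j, 2u and 4, 6 fell and 1 rose. Cyp4b1, which hydroxylates fatty acids and activates several protoxins, was at 7.99, 7.48, 8.68, 7.57 and 8.19 in controls and at 5.55, 5.69 and 5.57 in inflamed colon. The inflamed arrays lay close together and far below all controls, and Cyp4b1 fell by 2.38 ± 0.26, or 5.21-fold (adjusted p = 0.00196). The Cyp4f subfamily, which includes the enzymes that inactivate leukotriene B4, an attractant of neutrophils, had 5 of 9 members that fell. Cyp4f13 was at 9.05, 8.67, 8.94, 8.81 and 8.92 and at 7.63, 7.91 and 7.48, and fell by 1.20 ± 0.12 (adjusted p = 0.0012). Cyp4f14, a leukotriene B4 hydroxylase, was at 10.32, 9.97, 10.75, 10.39 and 10.13 and at 9.32, 9.75 and 9.00, and fell by 0.95 ± 0.21 (adjusted p = 0.0285). Inflamed replicate 2 was the least reduced in both. Cyp4f16 was at 8.41, 8.20, 8.73, 8.10 and 8.05 in controls and at 7.64, 7.65 and 7.39 in inflamed colon, and fell by 0.74 ± 0.16 (adjusted p = 0.0251). Cyp4f37 was at 8.15, 8.0, 8.48, 7.86 and 7.88 in controls and at 7.56, 7.59 and 7.32 in inflamed colon, and fell by 0.58 ± 0.15 (adjusted p = 0.0462). Among controls, both of these neighbours were highest on replicate 3, then on replicates 1 and 2. Whether their probes share signal was not tested. Cyp4f17 was at 6.60, 6.59, 6.85, 6.56 and 6.66 in controls and at 6.12, 6.15 and 5.99 in inflamed colon, and fell by 0.57 ± 0.073 (adjusted p = 0.0033). Cyp4f40 was at 9.49, 9.15, 9.38, 9.12 and 9.12 in controls and at 8.86, 8.98 and 8.90 in inflamed colon, and its difference of -0.34 ± 0.096 did not pass (adjusted p = 0.0612), although the groups did not overlap. Cyp4f18, the form known from neutrophils, was at 5.85 on 6 of 8 arrays and at 6.06 on inflamed replicate 3, a difference of 0.045 ± 0.062 (adjusted p = 0.659). Removing inflamed replicate 1 or 3 ended the calls of Cyp4f14 and Cyp4f16, as did removing control replicate 1, 4 or 5 for Cyp4f14 (adjusted p = 0.0537 to 0.0919 in all) and control replicate 1 or 2 for Cyp4f16 (0.052 to 0.0763 in all). Cyp4f37 lost its call without any 1 array but control replicate 3 (adjusted p = 0.0576 to 0.125). With the sex pattern as a covariate Cyp4f14 and Cyp4f37 did not pass (adjusted p = 0.0552 and 0.0692), and with the floor neither they nor Cyp4f16 did (0.0565, 0.0834 and 0.0507).

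Cyp2j6, an epoxygenase of arachidonic and linoleic acid, rose. It was at 9.01, 8.85, 8.49, 8.51 and 8.47 in controls and at 9.26, 9.54 and 9.28 in inflamed colon. Every inflamed array lay above every control, by little for control replicate 1, and the rise was 0.69 ± 0.15, or 1.62-fold (adjusted p = 0.0228). It was the only member of 7 Cyp2j genes to pass, and 5 of the 7 lay under the dim limit. It lost its call when inflamed replicate 1 or 2 or control replicate 3, 4 or 5 was removed (adjusted p = 0.052 to 0.0645).

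Of the Ahr-induced subfamilies, named for the receptor of dietary and microbial indoles, 1 of 4 members fell. Cyp2s1, an extrahepatic enzyme of epithelia, was at 9.83, 9.72, 9.45, 9.32 and 9.47 in controls and at 8.11, 8.41 and 8.14 in inflamed colon, and fell by 1.34 ± 0.13, or 2.53-fold (adjusted p = 0.0012). Cyp1a1, the classical target of the receptor, was at 3.91 to 3.99 on all 8 arrays, under the dim limit, so a change could not be seen. Cyp1b1 lay at 3.57 to 3.63 except for 3.95 on inflamed replicate 3, and Cyp1a2 at 4.94 to 5.09. The core of the receptor's element, GCGTG on either strand, was in 15 of 67 members' windows (22.4%) and in 35.1% of genes.

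Of 6 bile acid and oxysterol genes, 1 fell, 1 rose and 4 did not pass. Cyp27a1, the mitochondrial sterol 27-hydroxylase, was at 7.48, 7.15, 7.26, 7.07 and 7.67 in controls and at 6.49, 6.62 and 6.54 in inflamed colon, and fell by 0.77 ± 0.14 (adjusted p = 0.0115). Cyp7b1, which acts on 25-hydroxycholesterol in the making of a ligand that guides lymphocytes, was at 4.32, 4.58, 4.45, 4.39 and 4.60 in controls and at 4.82, 4.87 and 4.97. It rose by 0.42 ± 0.074 (adjusted p = 0.0117), from below the dim limit to about that limit, so the size is uncertain. With a floor at that limit the difference was 0.03 (adjusted p = 0.506). Cyp39a1, another oxysterol hydroxylase, was at 7.76, 7.73, 7.54, 7.67 and 7.77 in controls and at 6.68, 7.54 and 6.63. Inflamed replicate 2 lay at the control minimum, and the difference of -0.74 ± 0.20 did not pass (adjusted p = 0.0545). Cyp7a1, the rate-limiting enzyme of bile acid synthesis in liver, Cyp8b1 and Cyp46a1 differed by -0.031, -0.066 and -0.084 (adjusted p = 0.528, 0.616 and 0.425). Ch25h, which makes 25-hydroxycholesterol, differed by 0.31 ± 0.14 (adjusted p = 0.191).

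No member of the vitamin D, retinoic acid or steroid hormone groups passed. Cyp2r1, a vitamin D 25-hydroxylase, was at 4.93, 4.64, 4.84, 4.73 and 4.66 and at 4.15, 4.64 and 4.19, a difference of -0.43 ± 0.12 (adjusted p = 0.0638). Cyp24a1, which breaks vitamin D down, differed by -0.031 ± 0.038 (adjusted p = 0.622), and Cyp27b1, which activates it, had the same value of 4.93 on all 8 arrays. The retinoic acid hydroxylases Cyp26a1 and Cyp26c1 differed by -0.11 ± 0.083 and -0.030 ± 0.040 (adjusted p = 0.43 and 0.652). Cyp11a1, which makes pregnenolone from cholesterol, was at 4.87 to 5.24 in controls and at 5.19, 4.83 and 5.45, a difference of 0.11 ± 0.14 (adjusted p = 0.632). The other 4 steroid genes, Cyp11b1, Cyp11b2, Cyp17a1 and Cyp21a1, differed by -0.057, -0.024, -0.028 and 0.0028 (adjusted p = 0.499 to 0.965). Cyp20a1, an enzyme of unknown substrate, was at 7.54, 7.53, 7.60, 7.60 and 7.42 in controls and at 7.69, 7.97 and 7.63 in inflamed colon. All inflamed arrays lay above the controls, but the difference of 0.23 ± 0.082 did not pass (adjusted p = 0.12).

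**Figure D4:**
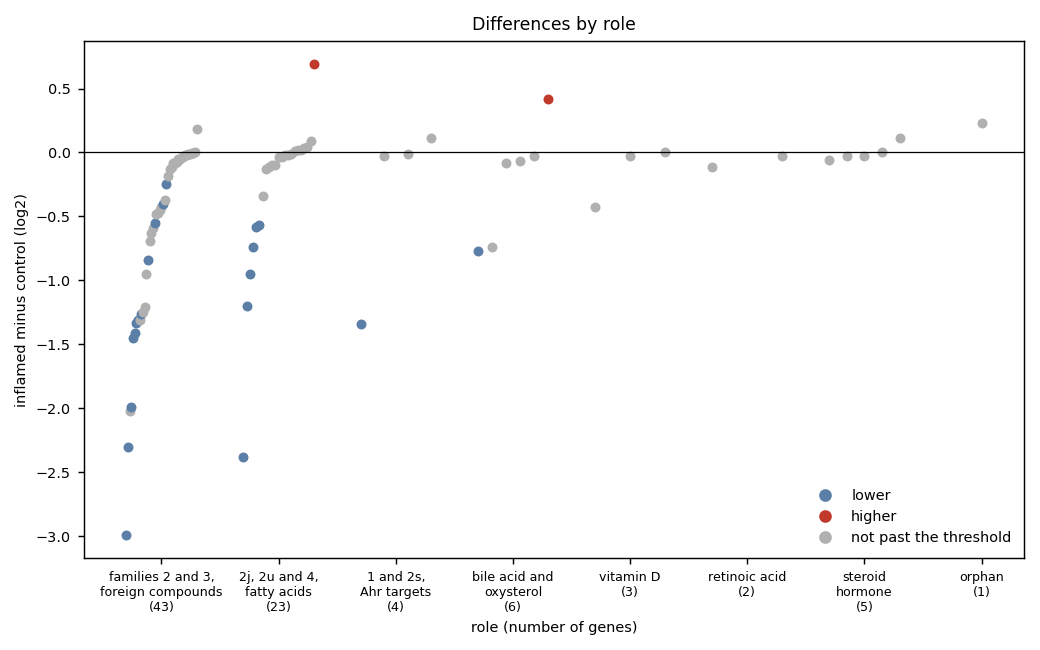
Difference of each P450 gene, inflamed minus control (log2), in columns by role, with the number of genes in each. Genes that fell are blue, those that rose red and the others grey; 12 of 43 foreign-compound genes and 6 of 23 fatty acid genes are blue.

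Receptors that control P450 genes were lower more often than higher. Of 19 measured nuclear receptor genes, 7 fell and 1 rose, where 5.01% of all genes fell and 8.02% rose. Ppara, the receptor that drives fatty acid oxidation, was at 7.73, 7.50, 7.76, 7.67 and 7.69 in controls and at 6.19, 6.51 and 6.05, and fell by 1.42 ± 0.11 (adjusted p = 0.000505). Nr5a2, which controls bile acid and gut glucocorticoid synthesis, fell by 1.18 ± 0.16 (adjusted p = 0.00402). Vdr, the vitamin D receptor, was at 10.85, 10.72, 10.60, 10.57 and 10.68 and at 9.44, 10.00 and 9.19, and fell by 1.14 ± 0.17 (adjusted p = 0.00605). Smaller falls were those of Nr1i2, the PXR receptor of foreign compounds, by 0.36 ± 0.087 (adjusted p = 0.0351), Nr3c1, the glucocorticoid receptor, by 0.35 ± 0.064 (adjusted p = 0.0132), Hnf4a by 0.30 ± 0.077 (adjusted p = 0.0431), and the partner receptor Rxra by 0.27 ± 0.068 (adjusted p = 0.0412). Rora, which binds sterols, rose by 0.80 ± 0.19 (adjusted p = 0.0368). Nr1i3, the CAR receptor, was near or under the dim limit and differed by -0.11 ± 0.060 (adjusted p = 0.292). Calls ended when some single arrays were removed: 5 of 8 for Nr1i2, namely control replicates 1 and 4 and each inflamed array (adjusted p = 0.0598 to 0.0905), and inflamed replicate 1 for Nr3c1 (0.0528). Rxra lost its call without any 1 array but control replicate 5 or inflamed replicate 3 (0.0681 to 0.116), Hnf4a without any 1 but control replicate 5 or inflamed replicate 2 (0.0736 to 0.12), and Rora without any 1 control or inflamed replicate 2 (0.0586 to 0.08). With the sex pattern as a covariate Nr1i2, Rxra and Rora did not pass (adjusted p = 0.0633, 0.0796 and 0.0716), and with the floor neither did these or Hnf4a (0.0631, 0.0689, 0.0693 and 0.0732). Hnf4a also missed the threshold with limma's trend and robust options (0.0525), and Rora with the mean over its probe sets, where its difference was 0.33 (0.119).

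The Ahr gene itself differed by 0.044 ± 0.038 (adjusted p = 0.477), while Tiparp, a target and repressor of the receptor, rose by 0.82 ± 0.17 (adjusted p = 0.02), 1 of 7 measured genes of that pathway to pass. Without control replicate 5 Tiparp did not pass (adjusted p = 0.0523). Among electron donors 1 of 8 measured genes fell, Pgrmc1, a haem-binding partner of P450s, by 0.57 ± 0.10 (adjusted p = 0.0114), and the reductase gene Por is not analysed here. Of 11 measured genes of haem supply and breakdown, Hmox1, the haem-degrading enzyme, rose by 0.92 ± 0.16 (adjusted p = 0.0117) and 0 fell. Over all genes 13.0% changed in either direction, so 1 change among 7, 8 or 11 genes is near that share. Alas1, the first enzyme of haem synthesis, differed by 0.47 ± 0.18 (adjusted p = 0.147). None of the 3 P450 genes under other names passed, among them Cyp51 of cholesterol synthesis, with a difference of 0.51 ± 0.17 (adjusted p = 0.0921).

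Enzymes that act before or after P450s were lower too, with 7 of 17 measured genes that fell and 1 that rose. Over all genes 5.01% fell and 8.02% rose. Hsd3b3, a hydroxysteroid dehydrogenase, fell by 2.40 ± 0.35 (adjusted p = 0.00531). Its near copy Hsd3b2, whose probes may share signal with it, differed by -2.31 ± 0.32 and fell too (adjusted p = 0.00451). Hsd3b6 fell by 0.54 ± 0.085 (adjusted p = 0.00711). Its inflamed arrays were at 4.74, 4.96 and 4.76, about the dim limit, so the size is uncertain. Hsd11b2, which inactivates glucocorticoids, was at 9.82 to 10.01 in controls and at 7.89, 9.49 and 8.14, and fell by 1.44 ± 0.33 (adjusted p = 0.0311), while Hsd11b1, which regenerates them, rose by 0.24 ± 0.059 (adjusted p = 0.0394). Hsd17b2, which inactivates sex steroids, fell by 1.15 ± 0.14 (adjusted p = 0.00308). Ephx2, the epoxide hydrolase that acts on the products of epoxygenases, fell by 0.79 ± 0.14 (adjusted p = 0.0103). Its relative Ephx4 fell by 0.39 ± 0.066 (adjusted p = 0.00962). Hsd11b2 lost its call without any 1 array but inflamed replicate 2 (adjusted p = 0.0663 to 0.095), and Hsd11b1 without any 1 but control replicate 1 or inflamed replicate 2 (adjusted p = 0.0633 to 0.123). With the floor neither passed (0.0612 for Hsd11b2 and 0.0503 for Hsd11b1), and Hsd11b1 did not pass with 75th percentile centring (0.105) or the sex covariate (0.0756) either.

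Leukocyte and smooth muscle markers moved with the groups, while the summed level of epithelial markers overlapped. All 9 leukocyte markers rose, with a summed level (log2 of the summed intensities) of 9.82 to 9.93 in controls and 12.14 to 12.25 in inflamed colon. Of 11 epithelial markers 4 fell and 1 rose, and their summed level was 15.39 to 15.53 and 15.27 to 15.47, so the groups overlapped. Epcam, an adhesion molecule of epithelium, differed by -0.0052 ± 0.032 (adjusted p = 0.939) and Cdh1 by 0.016 ± 0.049 (adjusted p = 0.864). Among genes of mature colonocytes, Aqp8 fell by 2.15 ± 0.41 (adjusted p = 0.0151) and Slc26a3 by 1.30 ± 0.32 (adjusted p = 0.039), while Krt20 rose by 0.58 ± 0.12 (adjusted p = 0.02). Slc26a3 lost its call without any 1 array but control replicate 1 or inflamed replicate 2 (adjusted p = 0.0727 to 0.135), and Krt20 lost it when inflamed replicate 1 or 2 or control replicate 2 or 5 was removed (adjusted p = 0.0503 to 0.054). Slc26a3 did not pass with the sex covariate (0.075) or the floor (0.0732), nor Krt20 after quantile normalization, where its difference was 0.38 (0.248). Of 6 smooth muscle markers 5 fell, with a summed level of 13.64 to 14.15 and 13.10 to 13.27, and of the 5 fibroblast markers none passed. The leukocyte marker Coro1a lost its call without any 1 array but control replicate 2 or inflamed replicate 2 (adjusted p = 0.0543 to 0.0732) and with the sex covariate (0.0505). The muscle marker Des lost its call when any 1 inflamed array or control replicate 2 or 5 was removed (adjusted p = 0.0574 to 0.0823), with the sex covariate (0.053) and with the floor (0.0582). The part of these shifts in the P450 differences was not tested.

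**Figure D5:**
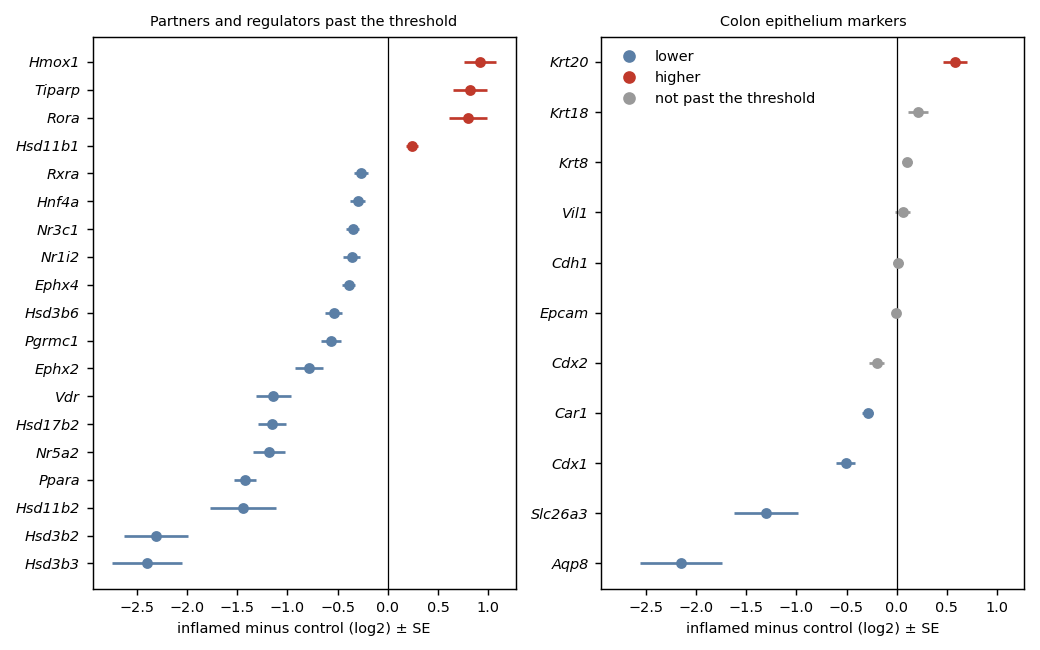
Difference, inflamed minus control (log2) with SE, of the 19 partner and regulator genes that changed (left) and of the 11 colon epithelium markers (right). Falls are blue, rises red and genes that did not pass grey, with Hsd3b3 and Aqp8 at the lower ends and Epcam close to 0.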

How the data were processed

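RNA of 8 mouse colons was hybridised to Affymetrix whole-transcript arrays, 1 array per mouse. The authors deposited 1 log2 intensity per probe set and array. Per the submitters' processing notes these came from Expression Console with RMA, which subtracts background, equalizes arrays, averages probes robustly and compresses low signals. Not given in the sources used here were tool versions, settings and genome build. The log2 scale was taken from the values. The number of arrays limits precision.

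Of 72688 probe sets, 65956 were transcript clusters. With GEO's platform annotation, updated through RefSeq's GRCm38.p6 gene table, 31082 had 1 gene, 1668 had several genes and were left unnamed, and the others had none. The brightest probe set per gene gave 30627 genes. Groups were compared with limma 3.58.1 in R 4.3.3 (lmFit, eBayes, no covariate) and Benjamini-Hochberg adjustment over all genes. The script was tested on simulated data. Array values are given for members past the threshold and the 6 brightest others, and values or ranges for those of single-role pathways and for some neighbours chosen after their values were seen.

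The members, gene lists and tests were chosen with earlier results of these data known. Alternatives were 2 other scalings, a floor at the dim limit, dim genes left out, the mean over probe sets, limma's trend and robust options, weights per array, replicate number as a block, sex pattern as a covariate, and each array left out.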

Additional observations from a re-analysis of the deposited data

Results flagged for a closer look

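In 5 of 39 genes examined, 1 control array lay far from the other 4 by Dixon's test, where chance flags about 1 in 20 such groups. Cyp2d9 was at 8.30 on control replicate 1, against 8.55 to 8.64 on the others. The other 4 involved control replicate 2, at 5.90 for Cyp26c1 (others 5.82), 3.02 for Cyp7a1 (others 3.05), 4.69 for Cyp11b1 (others 4.48 to 4.51) and 5.50 for Cyp21a1 (others 5.40 to 5.42). In those 4 genes the other controls were nearly identical, so small steps were enough.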

How the results depend on the processing

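Of 372 values of the 22 members under the alternatives, 270 stayed past the threshold, 102 did not and 0 changed sign, and 11 members passed without each array in turn. With arrays centred on the 75th percentile 33 members fell and the median P450 difference was -0.143. With a floor at the dim limit 10 fell, 1 rose and the median was 0, since most dim members then have no difference, and with dim genes left out 1 rose and the median over the 43 members left was -0.589. Leaving out 1 array gave 2479 to 4529 changed genes, 10 to 25 members that fell, 1 or 2 that rose, medians of -0.109 to -0.0733 and 13 to 22 changed partner genes. With the replicate number as a block 0 genes passed limma's test (4889 at an unadjusted p under 0.05), and so 0 members fell, 0 rose (26 at that p) and 0 partner genes changed, with a median of -0.097. The block used up most of the residual degrees of freedom. Same-numbered arrays did not deviate together (r = -0.2856, -0.0524 and 0.0688 over genes). So few pairs cannot show whether arrays shared a batch or were paired, and the labels name neither. The largest changed-gene count without an array was without inflamed replicate 2, the smallest without inflamed replicate 1. Genes with all values above the floor kept their differences under it, and lost calls there only through variance and adjustment shared over all genes. Signals near background limit what dim members can show.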
